A study of Mus musculus with 3 samples.

Results

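The Polycomb and trithorax chromatin regulators comprise 40 genes, measured by 65 probes among the 55681 non-control probes of the array, which stand for 35589 genes when each unnamed accession is counted as a gene. A probe was taken as a member if the RefSeq accession in the scanner files, or the gene name in the authors' deposited table, gave the current or an older symbol of one of the 40 genes. The genes were 11 of Polycomb repressive complex 2 (PRC2), 19 of Polycomb repressive complex 1 (PRC1), 3 of the Polycomb deubiquitinase (PR-DUB) and 7 of the trithorax group. Of these, 39 genes and 60 probes were bright enough to be tested. The chromobox gene Cbx7 was not, since its 1 probe was not well above background in either channel on any array.

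Polycomb and trithorax proteins act on histones at developmental genes and are known for holding such genes silent or active through cell division. PRC2 places a repressive methyl mark on histone H3, and PRC1 binds that mark through its chromobox subunits and attaches ubiquitin to another histone, while PR-DUB takes the ubiquitin off again. Trithorax complexes of the MLL type place an activating methyl mark on histone H3, and in the developing cortex both systems are known to bear on how long progenitors divide and when they turn to making neurons and glia.

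The arrays compared the dorsal cortex of Brpf1-deficient mouse pups with that of wild-type pups, both untreated and at postnatal day 4. BRPF1 is a scaffold protein of histone acetyltransferase complexes. Each of the 3 two-colour Agilent arrays held RNA labelled as from a Brpf1-deficient pup in the red dye Cy5 and RNA labelled as from a wild-type pup in the green dye Cy3. The labels number the pairs 1 to 3. They name neither the allele, nor the cells in which Brpf1 was removed, nor the sex or litter of the pups, so the p-values measure the spread between these 3 pairs.

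All ratios here are Cy5 over Cy3 on the log2 scale, after background correction and an intensity-dependent (loess) normalization within each array. A gene is called where limma's p-value against a ratio of 0, adjusted over all tested probes by the Benjamini-Hochberg method, is under 0.05. Values after ± are the SD over 3 arrays, n = 3. No array had the dyes swapped, so a dye effect and a genotype effect cannot be told apart. The probe of Brpf1 itself gave ratios of 0.63, 0.73 and 0.96 on arrays 1, 2 and 3, with a mean of 0.77 ± 0.17 and a limma adjusted p of 0.00453. It was thus 1.71-fold brighter in the channel labelled Brpf1-deficient. The probe's place relative to the deletion is unknown here, so it does not settle the labels. Ratios here run against the sign of the authors' deposited table, which gives a log2 fold change of -0.80 for Brpf1, and all 43 member probes listed there have the sign opposite to the ratios given here. The genotype that belongs to each direction is therefore not settled, and results are stated by channel, as brighter in Cy5 (labelled Brpf1-deficient) or brighter in Cy3 (labelled wild type).

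On each array 57.9% to 58.2% of gene spots stood well above background in Cy5 and 59.9% to 61.0% in Cy3, with no saturated spot. Over 32983 kept probes the ratios of pairs of arrays correlated with Pearson's r of 0.50 (arrays 1 and 2), 0.703 (arrays 1 and 3) and 0.485 (arrays 2 and 3). All 10 markers of dorsal cortex neurons were kept, and 9 were above background in both channels on all 3 arrays, so the defining markers of the labelled tissue were present. The remaining marker was Emx1, a cortical homeobox gene chosen for mention after its values were seen. Its ratio was 0.65 on array 1, -2.72 on array 2 and -2.65 on array 3, so array 1 stood apart from the others for this gene. Whether the genotype labels of pair 1 hold was not tested, and the calls that change without array 1 are named below. Of 10 striatal markers, 8 were called brighter in Cy5, and their summed level ran from 88326 to 98330 in Cy5 and from 34127 to 74030 in Cy3. The 5 erythroid markers summed to between 295145 and 423063 in Cy5 and between 101809 and 251212 in Cy3, and 2 of them were called brighter in Cy5. Over all tested genes 7.74% were called brighter in Cy5. The 2 erythroid markers called, Hba-a1 and Hba-a2, had mean log2 intensities of 16.39 and 16.56. Of all kept probes over 16, 38.4% were called brighter in Cy5. Many PRC2 genes are known to be high in dividing progenitors. The 14 tested markers of these cells summed to between 76372 and 84901 in Cy5 and between 82203 and 83795 in Cy3. Of these markers, 2 were called brighter in Cy5 and none in Cy3, or 14.3% beside 16.8% of all tested genes. Yet 8 of the 14 averaged below 0 and 6 above, and the median of the 14 was -0.10. The part of tissue make-up in the ratios below was not tested. In such bulk samples fewer cells of a type and less RNA per cell cannot be told apart.

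Of the 39 tested member genes, each represented by its brightest kept probe, 4 were called, and all 4 were brighter in Cy3: Bmi1, Mtf2, Suz12 and Phc3. No member was called brighter in Cy5. The 4 genes make 10.3% of the tested members, while 16.8% of all 23304 tested genes were called, 7.74% brighter in Cy5 and 9.02% brighter in Cy3. The members' share was therefore not above the background. At an unadjusted limma p under 0.05 there were 9 of the 39 members, against 36.3% of all tested genes. The median size of the members' log2 ratio was 0.12, close to the 0.14 of all genes, and no member differed by 2-fold. Ratios were below 0 for 25 members (64.1%) and for 51.2% of all genes. The unadjusted 95% interval of a member's ratio reached a median of 0.18 to either side of it. Log2 differences well under that size were thus not detectable with 3 arrays. Somewhat larger ones could also miss the adjusted threshold, as Rnf2 did at -0.27.

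**Figure D1:**
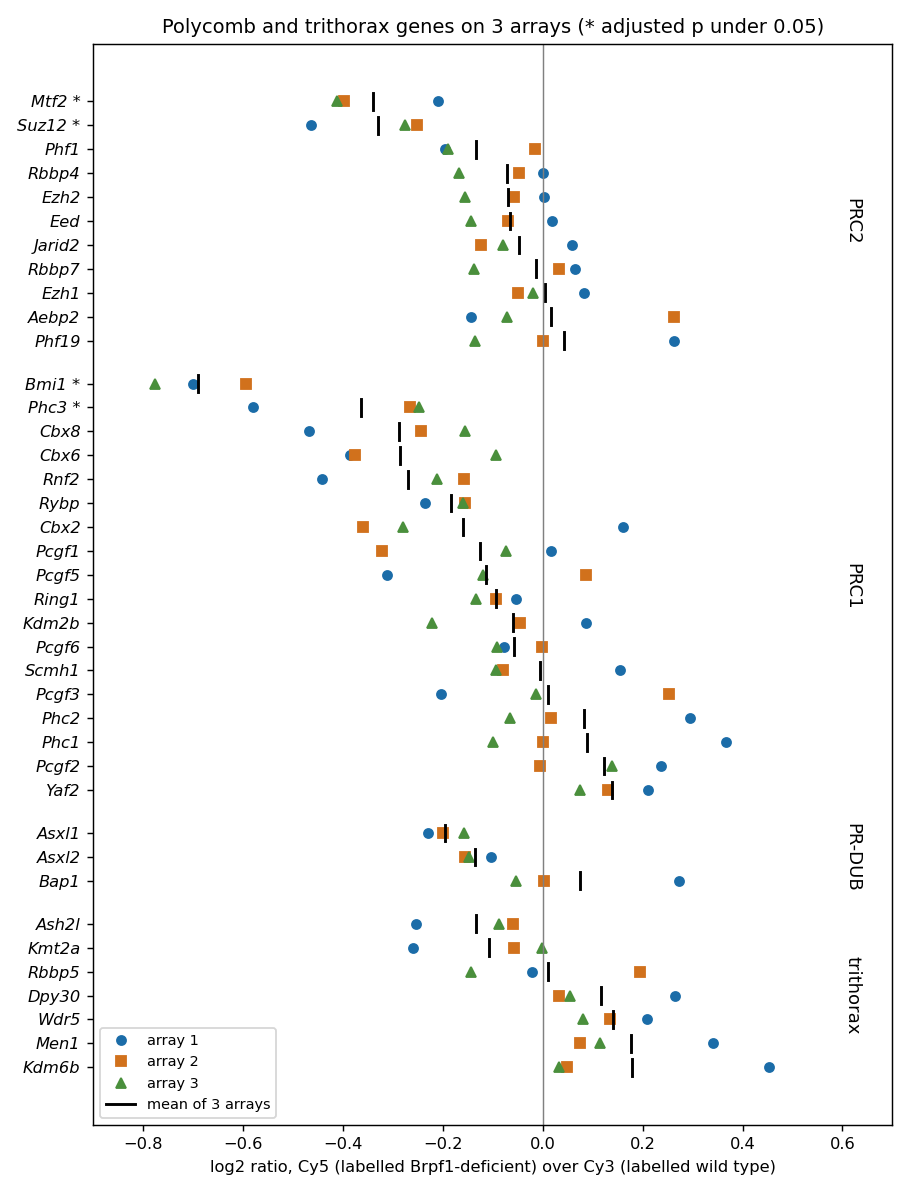
Log2 ratio, Cy5 (labelled Brpf1-deficient) over Cy3 (labelled wild type), of each tested member gene on each of the 3 arrays (points) with the mean (bar), grouped by complex. Bmi1 lies between -0.78 and -0.59 on all arrays, and most other members scatter around 0.

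**Figure D2:**
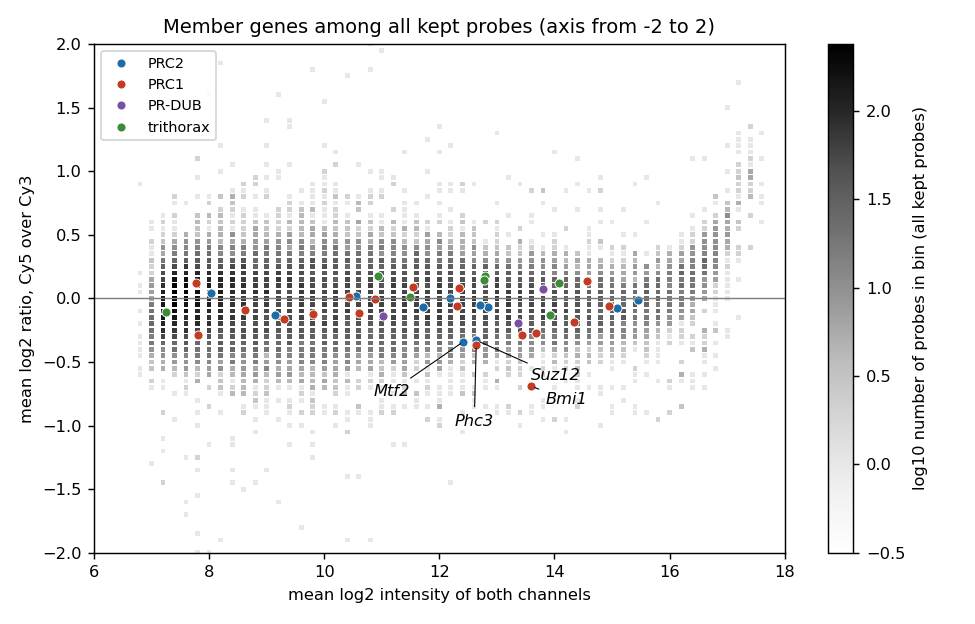
Mean log2 ratio, Cy5 over Cy3, against mean log2 intensity for the member genes (coloured by complex) over all kept probes (grey, by log10 number of probes per bin), with 15 kept probes beyond the axis. Bmi1 lies at the lower edge of the cloud, and probes with a mean log2 intensity over 16, which hold no member, lean to Cy5.

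The promoters of the 4 genes are shown because these were the members called on their brightest probe. Each line is the 250 bases before a RefSeq transcription start in GRCm38.p6, 5′ to 3′ on the gene's strand, with matches to any of 6 motifs in capitals. The motifs, read on both strands and allowed to overlap, were the GC box GGGCGG, the CCAAT box CCAAT, the E-box CACGTG, an ETS site CCGGAAG, a YY1 core CCATNTTG and an E2F-like site TTTNNCGC. The windows are chr2:18676768-18677017 on the plus strand for Bmi1, chr3:30969416-30969665 on the minus strand for Phc3, chr5:108065424-108065673 on the plus strand for the upstream of the starts of Mtf2, and chr11:79992856-79993105 on the plus strand for Suz12.
Bmi1: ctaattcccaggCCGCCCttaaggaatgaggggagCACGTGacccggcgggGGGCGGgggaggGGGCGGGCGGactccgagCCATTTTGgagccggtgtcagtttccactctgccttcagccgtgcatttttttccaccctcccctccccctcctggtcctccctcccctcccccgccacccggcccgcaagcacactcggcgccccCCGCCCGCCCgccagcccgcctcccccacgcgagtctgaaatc
Phc3: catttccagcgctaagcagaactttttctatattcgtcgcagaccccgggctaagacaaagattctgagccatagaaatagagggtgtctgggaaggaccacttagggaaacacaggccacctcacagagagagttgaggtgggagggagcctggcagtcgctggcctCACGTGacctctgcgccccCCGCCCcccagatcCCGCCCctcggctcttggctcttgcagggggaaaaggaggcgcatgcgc
Mtf2: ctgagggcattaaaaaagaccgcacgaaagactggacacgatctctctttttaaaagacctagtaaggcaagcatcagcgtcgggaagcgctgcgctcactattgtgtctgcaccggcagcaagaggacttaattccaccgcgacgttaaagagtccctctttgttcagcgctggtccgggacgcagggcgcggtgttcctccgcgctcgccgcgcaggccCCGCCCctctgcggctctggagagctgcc
Suz12: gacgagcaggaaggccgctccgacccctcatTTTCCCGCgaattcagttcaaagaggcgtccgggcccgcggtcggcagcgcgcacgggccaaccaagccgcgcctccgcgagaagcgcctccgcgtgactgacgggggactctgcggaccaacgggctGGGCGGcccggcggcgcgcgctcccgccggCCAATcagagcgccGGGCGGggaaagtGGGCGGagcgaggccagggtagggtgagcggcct

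All 4 printed windows held a GC box. The window of a second, downstream start of Mtf2 is not printed. It held no GC box, 1 CCAAT box and 2 CpG dinucleotides. In the printed windows the GC box occurred 6 times for Bmi1, 3 times for Suz12, 2 times for Phc3 and 1 time for Mtf2. Bmi1 and Phc3 shared an E-box, and Bmi1 alone among the 4 held a YY1 core. Suz12 held 1 CCAAT box and 1 E2F-like site, and no ETS site was found in these 4 windows. CpG dinucleotides numbered 21 in Bmi1, 12 in Phc3, 23 in Mtf2 and 37 in Suz12, beside a median of 21.5 over the 34 members with a RefSeq promoter and of 6 over 27018 genes. A GC box was found in 35 of the 51 member windows (68.6%) and in 32.7% of 32841 promoters, and an E-box in 15.7% of member windows and 6.02% of all. The remaining motifs occurred in 35.3% of member windows and 33.9% of all promoters for the CCAAT box, 5.88% and 6.91% for the ETS site, 5.88% and 3.36% for the YY1 core, and 5.88% and 4.28% for the E2F-like site. GC boxes and CpG dinucleotides were thus more frequent upstream of the members than over all promoters. Called and uncalled members were not compared, and a match says only that the letters are there.

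Within PRC2, the catalytic and scaffold subunits other than Suz12 showed no called difference. Ezh2, the main methyltransferase of dividing cells, had log2 levels of 11.65, 11.69 and 11.69 in Cy5, against 11.65, 11.74 and 11.85 in Cy3. The channels overlapped, and the mean ratio was -0.070 ± 0.08 with a 95% interval of -0.24 to 0.10 (limma adjusted p = 0.509). Ezh1, the related enzyme of non-dividing cells, had log2 levels of 12.21, 12.18 and 12.15 in Cy5, against 12.12, 12.23 and 12.17 in Cy3, which overlapped as well. Its interval was -0.16 to 0.17 (limma adjusted p = 0.973), and none of its 3 probes was called. Eed, which reads the methyl mark and activates the enzyme, had ratios of 0.02, -0.07 and -0.14 on arrays 1, 2 and 3, with an interval of -0.23 to 0.10 (limma adjusted p = 0.542). The histone-binding subunits Rbbp4 and Rbbp7, which also serve in other chromatin complexes, overlapped between channels too. Rbbp4 had log2 levels of 15.18, 15.02 and 14.98 in Cy5, against 15.18, 15.07 and 15.15 in Cy3, with a mean ratio of -0.072 ± 0.09. Rbbp7 had 15.49, 15.48 and 15.36 in Cy5, against 15.42, 15.44 and 15.50 in Cy3, with a mean ratio of -0.013 ± 0.11.

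Suz12, the scaffold on which PRC2 is built, was the exception in the core. Its log2 levels were 12.33, 12.52 and 12.58 in Cy5, against 12.79, 12.78 and 12.86 in Cy3. All 3 Cy5 values lay below all 3 Cy3 values, and the ratio was negative on every array, at -0.46, -0.25 and -0.28. The mean of -0.33 ± 0.12 (limma adjusted p = 0.0311) made it 1.26-fold brighter in Cy3. The call was lost without array 1 (adjusted p = 0.05, not under the threshold) and without array 3 (adjusted p = 0.0873), and with the scanner's processed signals (0.0936) or median centring (0.157).

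Among the accessory subunits, which steer PRC2 to its sites, Mtf2 was called. MTF2 belongs to the Polycomb-like proteins, which are known to bring PRC2 to CpG-rich DNA. Its log2 levels were 12.25, 12.31 and 12.19 in Cy5, against 12.46, 12.71 and 12.60 in Cy3, without overlap. The ratios of -0.21, -0.40 and -0.41 averaged -0.34 ± 0.11 (limma adjusted p = 0.0286), or 1.27-fold brighter in Cy3. A second probe of Mtf2 gave -0.44, -0.41 and -0.15, with a mean of -0.33 ± 0.16 (limma adjusted p = 0.0379), so both probes had the same sign on all arrays, though array 3 was weakest for the second probe and array 1 for the first. For the brighter probe the call was lost without array 2 (adjusted p = 0.0686) and without array 3 (0.126), and for the second without array 1 (0.0772) and without array 2 (0.0918). Processed signals (0.104) and median centring (0.0631) also ended the call of the brighter probe, and that of the second probe (0.101 and 0.0515). The second probe was dim, at a mean log2 intensity of 7.55 against 12.42 for the brighter, with Cy5 above background on 2 arrays. The other Polycomb-like genes, Phf1 and Phf19, averaged -0.13 ± 0.10 and 0.042 ± 0.20. Jarid2 and Aebp2, which mark out a second form of PRC2, averaged -0.048 ± 0.09 and 0.016 ± 0.22. None of these 4 was called.

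In PRC1, the widest separation of the channels was that of Bmi1, a PCGF subunit that pairs with the ubiquitin ligase and is known for sustaining neural stem cell self-renewal. Its log2 levels were 13.10, 13.36 and 13.31 in Cy5, against 13.80, 13.95 and 14.09 in Cy3. Every Cy3 value lay above every Cy5 value. The ratios of -0.70, -0.59 and -0.78 averaged -0.69 ± 0.09, with a 95% interval of -0.86 to -0.52, which made Bmi1 1.61-fold brighter in Cy3 (limma adjusted p = 0.00378). The second Bmi1 probe gave -0.71, -0.58 and -0.81 and a mean of -0.70 ± 0.12 (limma adjusted p = 0.00427), within 0.0097 of the first. Bmi1 was called in all 12 other settings tried, those without array 1, 2 or 3 included, with ratios between -0.74 and -0.51 and adjusted p between 9.33e-06 and 0.0313. Over all tested genes, 205 (0.88%) had a ratio at or below that of Bmi1.

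The other PCGF genes, each of which defines its own form of PRC1, were not called on their brightest probes. Pcgf2, the closest relative of Bmi1, had log2 levels of 7.88, 7.80 and 7.83 in Cy5, against 7.65, 7.81 and 7.69 in Cy3, and a mean ratio of 0.12 ± 0.12. Pcgf1, Pcgf3 and Pcgf6 averaged -0.13 ± 0.18, 0.011 ± 0.23 and -0.057 ± 0.05. Pcgf5 averaged -0.11 ± 0.20 on its brightest probe (limma adjusted p = 0.386). Its dimmest probe, named through the authors' deposited table, gave -0.48, -0.23 and -0.26 and was called brighter in Cy3 (mean -0.32 ± 0.14, limma adjusted p = 0.0352). That probe lost the call without array 1 (0.0585), without array 3 (0.0911), with processed signals (0.0736) and with median centring (0.0875), and the probe of middle brightness averaged -0.26 (0.0808).

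The RING genes encode the ubiquitin ligases of PRC1. Rnf2, whose protein RING1B is the main ligase, had log2 levels of 13.42, 13.61 and 13.60 in Cy5, against 13.87, 13.77 and 13.82 in Cy3. The channels did not overlap, but the mean of -0.27 ± 0.15 did not pass the test (limma adjusted p = 0.0600). Ring1 averaged -0.094 ± 0.04 (limma adjusted p = 0.353). Rybp, which marks the PRC1 forms that lack a chromobox protein, averaged -0.18 ± 0.05 with all 3 ratios between -0.24 and -0.16 (limma adjusted p = 0.102), and its paralog Yaf2 averaged 0.14 ± 0.07 with all 3 ratios between 0.08 and 0.21 (limma adjusted p = 0.196). These paralogs thus had opposite signs on every array, and neither was called, though with median centring alone Rybp stood at 0.078 and Yaf2 was called at 0.43 (adjusted p = 0.0131).

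Of the chromobox genes, which read the PRC2 mark, Cbx8 averaged -0.29 ± 0.16 (limma adjusted p = 0.0535) and Cbx2 averaged -0.16 ± 0.28 (limma adjusted p = 0.315). The Cbx8 probe was dim, at a mean log2 intensity of 7.80, with Cy5 above background on 2 arrays. Cbx2 was at 0.16 on array 1 but at -0.36 on array 2 and -0.28 on array 3, and without array 1 it was called at -0.32 (adjusted p = 0.0341). Cbx6 differed by probe. Its brightest probe averaged -0.28 ± 0.17 (limma adjusted p = 0.0567), its middle probe 0.01, and its dimmest probe gave 0.50, 0.32 and 0.18 and was called brighter in Cy5 (mean 0.33 ± 0.16, limma adjusted p = 0.0379). Without array 1 (adjusted p = 0.0688) or array 3 (0.0603), or with processed signals (0.0851), the dimmest probe was not called.

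Polyhomeotic proteins let PRC1 particles join into larger assemblies. Phc3 had log2 levels of 12.19, 12.55 and 12.63 in Cy5, against 12.76, 12.81 and 12.88 in Cy3, with no overlap. The ratios of -0.58, -0.27 and -0.25 averaged -0.36 ± 0.19 (limma adjusted p = 0.0346), or 1.29-fold brighter in Cy3. The second Phc3 probe pointed the other way, with ratios of -0.07, 0.28 and 0.22 and a mean of 0.15 ± 0.19 (limma adjusted p = 0.26). That probe was dim, at a mean log2 intensity of 7.46 against 12.64 for the brighter, with Cy5 above background on 2 arrays. When the probes were averaged, Phc3 stood at -0.11 (adjusted p = 0.387). The call of the brighter probe was also lost without array 1 (0.0531), without array 3 (0.0635), with processed signals (0.102) and with median centring (0.161). Phc1 and Phc2 averaged 0.089 ± 0.25 and 0.082 ± 0.19, and each was highest on array 1. The Polycomb protein gene Scmh1 averaged -0.0064 ± 0.14, and Kdm2b, which brings a PRC1 form to CpG islands, averaged -0.061 ± 0.15.

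**Figure D3:**
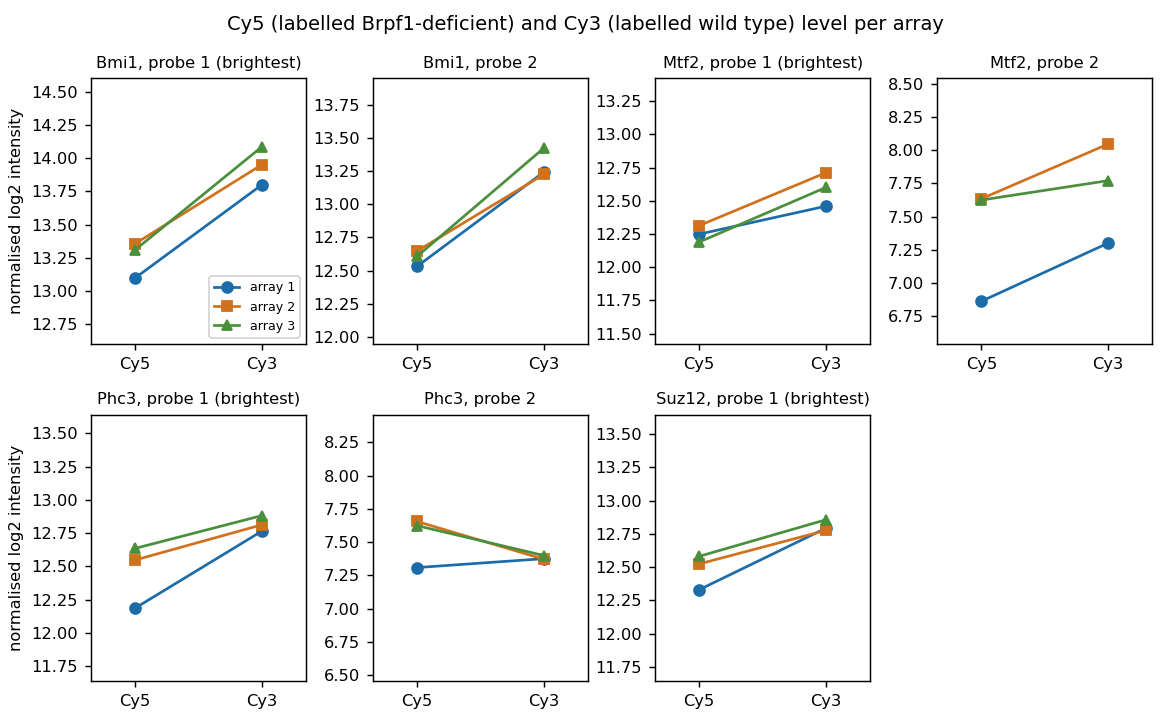
Log2 level in Cy5 (labelled Brpf1-deficient, left) and Cy3 (labelled wild type, right) for the called members, with a line joining the channels of each array. Each panel is 1 probe. On every array the Cy5 values lie below the Cy3 values for all panels but the second Phc3 probe, where arrays 2 and 3 run the other way.

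PR-DUB showed no called gene. The deubiquitinase Bap1 averaged 0.074 ± 0.17, with log2 levels that overlapped between channels. Its partners Asxl1 and Asxl2, which activate the enzyme, averaged -0.20 ± 0.04 (limma adjusted p = 0.0863) and -0.14 ± 0.03 (limma adjusted p = 0.191). Both were below 0 on all 3 arrays, and for Asxl1 the channels did not overlap.

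None of the 7 trithorax genes was called, and 5 of them averaged above 0 on their brightest probes. The WRAD subunits form the module that MLL methyltransferases need for activity. Of these, Wdr5 had log2 levels of 12.92, 12.81 and 12.82 in Cy5, against 12.71, 12.68 and 12.74 in Cy3. These did not overlap, yet the mean of 0.14 ± 0.06 did not pass the test (limma adjusted p = 0.189). Rbbp5 averaged 0.01 ± 0.17. Ash2l averaged -0.13 ± 0.10 on its brightest probe and 0.06 on the other, and Dpy30 averaged 0.12 ± 0.13 (limma adjusted p = 0.308) on one and -0.23 ± 0.18 (limma adjusted p = 0.1) on the other. The 2 Dpy30 probes were almost equally bright, at mean log2 intensities of 14.08 and 14.03. When they were averaged, Dpy30 stood at -0.057. Men1, the gene of menin, which tethers MLL proteins to chromatin, gave 0.34, 0.07 and 0.12 (mean 0.18 ± 0.14, limma adjusted p = 0.154). Kdm6b, a demethylase that removes the PRC2 mark, gave 0.45, 0.05 and 0.03 (mean 0.18 ± 0.24, limma adjusted p = 0.227), so its mean rested mostly on array 1. The methyltransferase gene Kmt2a was near background, above it on 2 arrays in each channel, at -0.11 ± 0.14 (limma adjusted p = 0.357).

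The groups were compared by the medians of their genes on each array, with no test. PRC2 had medians of 0.0025, -0.050 and -0.14 on arrays 1, 2 and 3, PRC1 had -0.067, -0.087 and -0.11, PR-DUB had -0.10, -0.16 and -0.15, and the trithorax genes had 0.21, 0.048 and 0.033. All genes had medians of -0.011, -0.0075 and 0.00069. PRC2 minus trithorax was -0.21, -0.098 and -0.18 (mean -0.16 ± 0.06), PRC1 minus trithorax was -0.28, -0.13 and -0.14 (mean -0.18 ± 0.08), and PRC2 minus PRC1 was 0.069, 0.037 and -0.034 (mean 0.024 ± 0.05). Both Polycomb repressive complexes thus lay below the 7 trithorax members on each array, and neither lay below the other on all 3. This order held for those members only, since 14 further trithorax genes, described below, had a median of -0.14, lower than either complex. Without array 1 the medians were -0.10 for PRC2, -0.12 for PRC1, -0.15 for PR-DUB and 0.040 for the trithorax members. Over the means of the 3 arrays, 2 of 11 PRC2 genes (18.2%) and 2 of 18 PRC1 genes (11.1%) were called brighter in Cy3, beside the 9.02% of all genes. The trithorax median of 0.12 depended on which probe stood for a gene, and was 0.0096 when a gene's probes were averaged. With median centring alone the PRC2 median changed sign to 0.065, and the trithorax median was 0.24.

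Over single probes, 8 of the 60 kept member probes (13.3%) were called, 7 brighter in Cy3 and 1 brighter in Cy5, where 16.8% of all 32983 kept probes were called, 7.48% brighter in Cy5 and 9.37% brighter in Cy3. They belonged to 6 genes, the 4 above with Pcgf5 and Cbx6. Of 18 members with several kept probes, 13 had probes of the same sign and 5 had probes of opposite signs (Cbx6, Phc3, Dpy30, Ash2l and Ezh1). The gap between a gene's lowest and highest probe ran up to 0.62 for Cbx6 and 0.51 for Phc3, while it was 0.0097 for Bmi1 and 0.0081 for Mtf2. Probe disagreement in Cbx6 and Phc3 was thus larger than most members' ratios. The second probes of Mtf2 and Phc3 were near background, so the gaps of these genes rest on a weak signal. In the authors' deposited table the Mtf2 probes stood further apart, at 0.34 and 0.99. Which transcripts the probes match was not analysed here.

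**Figure D4:**
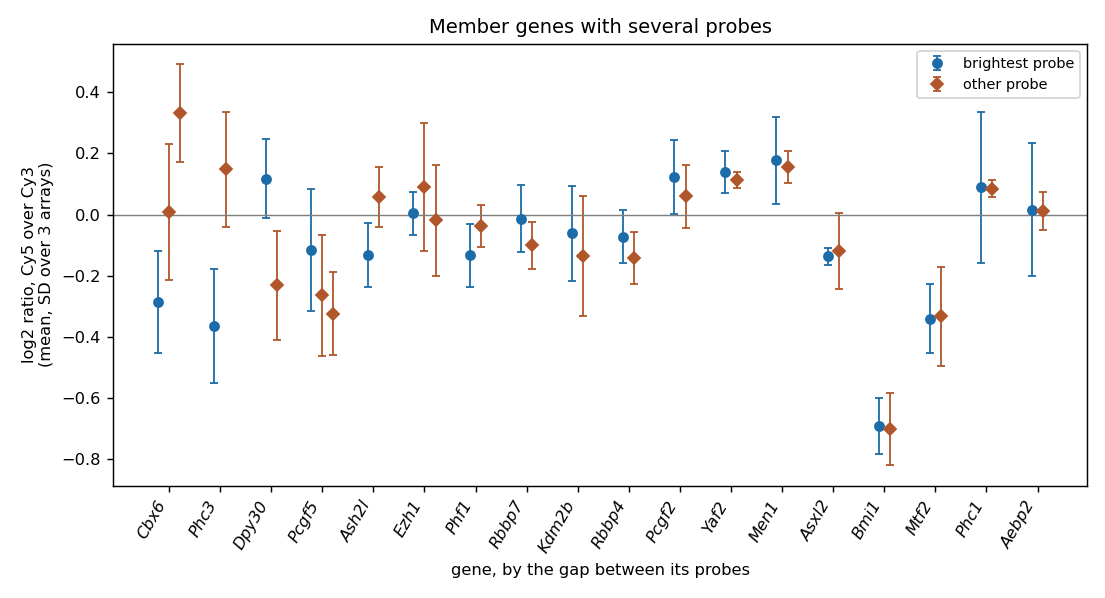
Mean log2 ratio, Cy5 (labelled Brpf1-deficient) over Cy3 (labelled wild type), of every kept probe of the members with several kept probes. The probes of Bmi1 and of Mtf2 nearly coincide, and those of Cbx6 and Phc3 fall on both sides of 0.

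Beyond the members, 46 further genes of the same complexes were listed, of which 44 could be tested. Of these, 8 were called brighter in Cy3 and 1 in Cy5 (20.5% in all, beside 16.8% of all genes), and their median ratio was -0.14. Among further PRC2 genes, 2 of 3 were called. Epop, an accessory subunit, gave 0.36, 0.16 and 0.31 (mean 0.27 ± 0.10, limma adjusted p = 0.046) and was brighter in Cy5, while Lcorl, whose locus encodes a PRC2 accessory protein, gave -0.99, -0.37 and -0.29 (mean -0.55 ± 0.39, limma adjusted p = 0.0352).

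Beside 16.8% of all genes, 15.8% of the further PRC1 genes were called, 3 of 19. All were brighter in Cy3: Scml4 at -0.45 ± 0.01 (limma adjusted p = 0.0113), Scml2 at -0.44 ± 0.08 (0.0134) and Sfmbt2 at -0.47 ± 0.17 (0.0171), which encode proteins with MBT or SAM domains of the Polycomb group. Of the further PR-DUB genes, 3 of 8 were called (37.5%), and these too were brighter in Cy3, beside 9.02% of all genes. Asxl3, the third member of the Asxl family, gave -0.45, -0.41 and -0.45 (mean -0.44 ± 0.02, limma adjusted p = 0.0124). Ogt, an enzyme that attaches a sugar to nuclear proteins and binds PR-DUB, averaged -0.50 ± 0.15 (0.0131), and Mbd5, whose protein binds PR-DUB, averaged -0.36 ± 0.13 (0.0266). Of 14 further trithorax genes only Kmt2d, another MLL-type methyltransferase, was called (7.14%), at -0.34 ± 0.12 (0.0293). It was above background on 1 array in Cy5 and on 3 in Cy3, so it passed the filter only through the channel where it was brighter. Where both channels had to be above background on all arrays, Kmt2d was not tested. Of these 14 genes, 13 averaged below 0 and the median was -0.14, whereas 5 of the 7 trithorax members averaged above 0 on their brightest probes. Without array 1, 2 or 3, the number of these 9 genes still called was 7, 8 and 4. The calls lost were Epop (0.0805 without array 1 and 0.183 without array 3), Kmt2d (0.0518, 0.0619 and 0.0527 without array 1, 2 and 3), and, without array 3, Mbd5 (0.0634), Sfmbt2 (0.0505) and Scml2 (0.0551). With processed signals 4 of the 9 were called, and Epop (0.0856), Lcorl (0.0892), Sfmbt2 (0.0515), Ogt (0.0551) and Mbd5 (0.0856) were not. With median centring 6 were called, and Lcorl (0.0947), Ogt (0.0556) and Mbd5 (0.143) were not. When a gene's probes were averaged, Lcorl (0.0759) and Sfmbt2 (0.0723) were not called. Scml4 and Asxl3 were called in all 12 alternatives.

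In the authors' deposited table no gene passes an adjusted p of 0.05. The lowest adjusted p there is 0.159, and the lowest of a member is 0.240, that of both Bmi1 probes, whose log2 fold changes are 0.71 and 0.70 in the direction of that table. Over 39890 probes in both, the ratios here and the authors' deposited table correlated with Pearson's r of -0.813, and all 5557 probes called here have the opposite sign there.

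How bright a probe was also moved with its ratio. The 837 kept probes with a mean log2 intensity over 16 had a median ratio of 0.22, and 38.4% of them were called brighter in Cy5, whereas the brightest member stood at 15.45. When the arrays were only centred on their median, without the intensity-dependent step, 80.4% of all called probes were brighter in Cy5, beside 44.4% with it. The members called were then Bmi1 in Cy3 and Dpy30, Men1, Rbbp4, Rbbp7 and Yaf2 in Cy5. Bmi1 was the only member called in every setting.

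**Figure D5:**
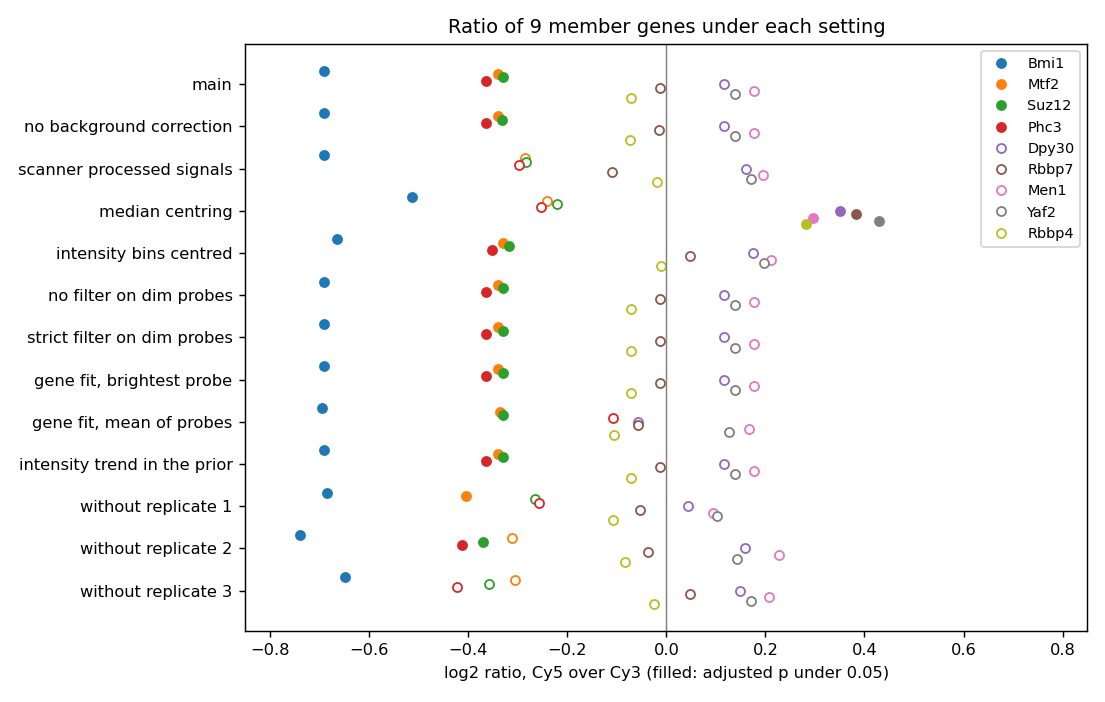
Log2 ratio, Cy5 (labelled Brpf1-deficient) over Cy3 (labelled wild type), of 9 members under each processing setting, with filled points where the adjusted p is under 0.05. Bmi1 stays between -0.74 and -0.51 in the other settings, while the calls of Mtf2, Suz12 and Phc3 come and go.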

How the data were processed

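Total RNA from the dorsal cortex of P4 pups (350 ng) was amplified once before dye coupling, per the labels' protocols. Spot intensity of both channels is deposited as read by Agilent Feature Extraction 10.7.3.1, per the file headers. The authors deposited a table with log2 fold changes, a t score and a log-odds score, p-values and adjusted p-values, made with limma per the submitters' processing notes. Its normalization and direction are unstated.

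Median spot intensities, the only raw signal in the files, were background-corrected (normexp, offset 50) and loess-normalized within each array in limma 3.58.1 (R 4.3.3), with control and outlier spots at weight 0 and outlier spots left out. Repeat spots were averaged. Probes stayed in where either channel was well above background on 2 or more of the 3 arrays. Ratios were tested against 0 with an intercept-only fit and moderated variances, two-sided, and a gene was represented by its brightest kept probe. Channel levels are values after loess and Aquantile normalization.

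Of all probes, 27656 were named by RefSeq accession (GRCm38.p6 gene table, names only) and 4082 by the authors' table. The authors' table ends at a p-value of 0.458, so naming depends in part on the outcome. The 23943 probes without a symbol were counted by the accession in the files. Of the member probes, 58 and 7 were named these ways. The members and lists were chosen with earlier results of these data known. All members are named, with values on every array for those called on any probe and for core subunits. From the further complex genes, those called are named, at most 4 per list by adjusted p, and from the marker lists at most 2. On simulated arrays of 32983 probes, the fit recovered 14 of 50 log2 differences of 0.3, 44 of 50 of 0.5 and all 50 of 0.7, with 23 false calls. There 32783 probes were left unchanged, whereas 16.8% of probes were called in the data. These recovery rates therefore need not hold for the data. The 12 alternatives changed the background correction, normalization, filter, gene summary, variance prior or arrays used.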

Additional observations from a re-analysis of the deposited data

How the results depend on the processing

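Bmi1 kept its call and direction in all 12 alternatives. Over the brightest probes of the tested members, counting each gene with each alternative, 437 values kept their side of the threshold. A further 13 lost the call, 6 gained one, and 8 moved without gaining or losing a call. The sign of uncalled members was not always kept. Kdm2b ran from -0.13 to 0.28 and Rybp from -0.20 to 0.078 over the alternatives, and neither was called in any. Median centring without loess reversed 2 into a call, Rbbp4 to 0.28 (adjusted p = 0.0432) and Rbbp7 to 0.38 (0.0203). It called 5 members brighter in Cy5 and 1 in Cy3, and 5439 probes in Cy5 and 1322 in Cy3, where the loess fit called 2468 and 3089. The group medians were then 0.065 for PRC2, -0.0020 for PRC1, -0.040 for PR-DUB and 0.24 for trithorax. With the scanner's processed signals 1 member was called in Cy3, and 679 probes in Cy5 and 757 in Cy3. Averaging a gene's probes left 1948 called in Cy3, from fewer features, and a trithorax median of 0.0096. Leaving out 1 array at a time gave 1 to 3 members in Cy3, 892 to 2218 probes in Cy5 and 1303 to 3516 in Cy3. The lowest counts were those without array 3, where Bmi1 was the 1 member called. An intensity trend in the variance prior added Cbx6 (0.0421) and Rnf2 (0.0436) in Cy3 and ended the call of Epop (0.0565). Other causes were not tested. Each array pairs its pups, so every fit was within pairs. On the simulated arrays most differences of 0.3 were not called, but far fewer probes were changed there than were called in the data. Among members near that size, Suz12 (-0.33) and Mtf2 (-0.34) were called in the fit reported above. Rnf2 (-0.27), Cbx6 (-0.28) and Cbx8 (-0.29) were not.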
